A study of Homo sapiens with 4 samples.

Results

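The glycolysis, pentose phosphate and hypoxia-response genes examined here are 36 protein-coding genes, written down by name and found among the 20372 genes of the deposited count table by their symbols. They fall into 2 glucose transporters, 15 glycolytic enzymes, 3 PFKFB enzymes that regulate phosphofructokinase, 4 genes that set the fate of pyruvate, 3 pentose phosphate enzymes, 8 targets of the hypoxia response, and HIF1A. Of these, 35 passed the filter on low counts. The exception was CA9, a carbonic anhydrase widely used as a hypoxia marker, which had 2 and 2 counts in the 6 h libraries and 0 and 0 at 24 h.

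The libraries were made from TPC1, an established human papillary thyroid carcinoma line that expresses the CCDC6-RET fusion, grown in DMEM with serum and treated with the RET inhibitor BLU6864 for 6 h or 24 h. There were 2 libraries per time point, with 23917056 and 26829072 counts at 6 h and 26486456 and 27457040 at 24 h. Every library was treated, and no vehicle library was analysed here, so time with the inhibitor cannot be told apart from time in culture. The tag re-analysis stands in the titles of both 24 h libraries and of neither 6 h library. Any difference behind this tag cannot be told apart from time either. The labels give a dose of 100 µM and the methods one of 100 nM. Neither source says whether the 2 libraries of a time point came from separate cultures, so P values measure the spread between these libraries, which may be technical. Of 13 thyroid and epithelial markers, 7 passed the filter on low counts, and PAX8 (19124 to 22978 counts), KRT8, and KRT18 were well detected. In contrast, 3 had 0 counts in all libraries, among them NKX2-1 and TSHR. The epithelial adhesion genes EPCAM and CDH1 had at most 11.

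Glycolysis splits glucose into pyruvate in the cytosol and yields ATP and NADH. Hexokinases trap glucose in the cell, phosphofructokinase commits it to the pathway, aldolase and triose phosphate isomerase make triose phosphates, and the lower steps from GAPDH to pyruvate kinase recover energy from them. The pentose phosphate pathway leaves from glucose 6-phosphate. Its oxidative arm makes NADPH, and its nonoxidative arm, run by transketolase and transaldolase, exchanges sugar phosphates with glycolysis. When oxygen is low, prolyl hydroxylases stop marking HIF-1α for destruction, and the factor raises transcription of glucose transporters, most glycolytic enzymes, and genes such as VEGFA and CA9 through short DNA elements with the core ACGTG or GCGTG. Many of these genes are also responsive to growth factor signaling and are highly expressed in cancer cells.

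To show these elements, the 250 bases before the transcription start are printed for 4 genes on which the results turn, of which P4HA1 and PGK1 fell and HK2 and ENO1 rose. The sequences are RefSeq's, from GRCh38.p14, and run 5′ to 3′ on the strand of the gene. They lie at chr10:73096867-73097116 (minus strand) for P4HA1, chrX:78103998-78104247 (plus) for PGK1, chr2:74833877-74834126 (plus; the first of 2 listed starts) for HK2, and chr1:8878687-8878936 (minus) for ENO1. Capitals mark ACGTG or GCGTG on either strand (written CACGT or CACGC where the match is on the other strand).
P4HA1: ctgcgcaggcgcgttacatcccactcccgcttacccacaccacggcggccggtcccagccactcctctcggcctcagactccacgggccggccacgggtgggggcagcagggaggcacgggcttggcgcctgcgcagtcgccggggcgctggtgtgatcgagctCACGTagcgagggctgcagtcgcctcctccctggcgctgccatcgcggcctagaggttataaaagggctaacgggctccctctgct
PGK1: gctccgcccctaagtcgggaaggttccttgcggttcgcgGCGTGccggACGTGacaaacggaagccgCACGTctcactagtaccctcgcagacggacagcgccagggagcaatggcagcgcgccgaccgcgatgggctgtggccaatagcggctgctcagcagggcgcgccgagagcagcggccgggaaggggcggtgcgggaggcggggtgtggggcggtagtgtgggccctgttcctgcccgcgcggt
HK2: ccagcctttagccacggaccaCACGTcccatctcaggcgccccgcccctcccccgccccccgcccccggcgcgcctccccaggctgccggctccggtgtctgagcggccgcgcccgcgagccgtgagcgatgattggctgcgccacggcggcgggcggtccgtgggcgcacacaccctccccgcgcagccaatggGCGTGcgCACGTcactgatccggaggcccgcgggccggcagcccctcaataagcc
ENO1: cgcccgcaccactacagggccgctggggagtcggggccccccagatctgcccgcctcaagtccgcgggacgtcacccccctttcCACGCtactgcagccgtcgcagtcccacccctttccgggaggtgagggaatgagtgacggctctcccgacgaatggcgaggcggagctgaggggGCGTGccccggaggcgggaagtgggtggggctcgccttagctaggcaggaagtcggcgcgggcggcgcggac
The window of P4HA1 holds 1 match, that of PGK1 3, that of HK2 3, and that of ENO1 2, so matches were found both in genes that rose and in genes that fell. PGAM1 and TKT, which also rose, had 0 matches. Either core was found before 3 of the 5 starts of members that rose and 7 of the 10 of members that fell. RefSeq lists 55 starts for 32 of the members, and those of PFKFB2, SLC2A3, VEGFA, and NDRG1 were not used here. Either core was found before 56.4% of the 55 starts, against 43.2% of all 35116 starts in the table and 54.3% of the 14384 starts of genes tested here. The core ACGTG alone was found before 40.0% of the members' starts, against 18.5% of all starts and 22.0% of those of genes tested. It overlaps the E-box CACGTG, which reads ACGTG on both strands and was found before 14.5% of the members' starts, 6.34% of all starts, and 8.11% of those of genes tested. Starts of 1 gene can overlap, and a match is a description of the letters and not a binding site.

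The 24 h libraries were set against the 6 h libraries in edgeR's quasi-likelihood test over 12876 genes, with positive log2 fold changes where 24 h was higher. A gene is said to have risen or fallen if its log2 fold change was over 0.5 or under -0.5 with an unadjusted P under 0.01. The downward cutoff and that on P are those of the study's methods, and the upward one was chosen here to mirror them. The Benjamini-Hochberg adjusted P over all genes tested is given beside it. By these cutoffs, 4 of the 35 members tested rose (11.4%) and 8 fell (22.9%), whereas 17.4% of all genes tested rose and 17.7% fell. Together 12 members passed, 34.3% of those tested, against 35.1% of all genes, so the share past the cutoffs is near that of the whole table and is no result about these genes as a group. At an adjusted P under 0.05 and no cutoff on size, 9 of the 35 members were higher and 16 of the 35 lower. The shares of all genes tested were 33.0% and 32.6%. The libraries of the 2 times did not overlap for 31 of the 35 members, with 24 h above in 13 of the 35 and below in 18 of the 35. The corresponding shares of all genes tested were 81.8%, 41.0%, and 40.8%. The median log2 fold change of the members was -0.080, beside 0.0029 for all genes tested, and it moved between -0.22 and -0.070 when 1 library at a time was left out. The pathways did not move as a unit, and enzymes of neighbouring steps went in opposite directions.

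**Figure D1:**
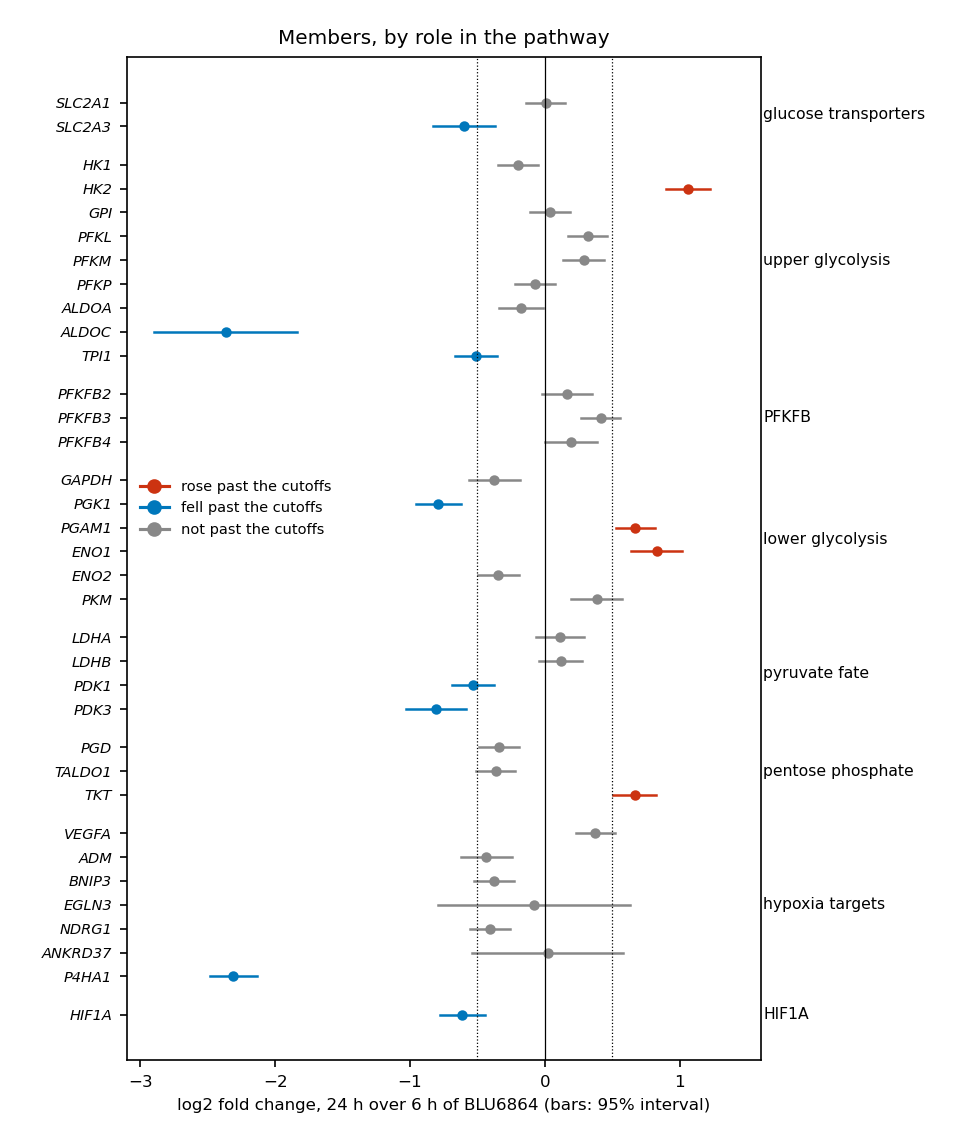
Log2 fold change of the 35 members tested, 24 h over 6 h of BLU6864, grouped by role, with horizontal bars for the 95% interval of edgeR's estimate and dotted lines at the cutoffs of -0.5 and 0.5. The 4 members that rose (HK2, PGAM1, ENO1, TKT) are red and the 8 that fell are blue, with ALDOC and P4HA1 farthest to the left, below -2.

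Markers of proliferation fell between the same libraries, all 12 of 12 (100%, against 17.7% of all genes tested), with a median of -4.26 on the log2 scale. They took 0.221% and 0.218% of counts at 6 h and 0.0220% and 0.0218% at 24 h. In bulk RNA, fewer cells that express a gene cannot be told apart from less RNA of it per cell, and the part of proliferation in the members' changes was not tested. The summed normalized counts of the 13 thyroid and epithelial markers were 24258 and 25536 at 6 h and 23873 and 25063 at 24 h, most of them from PAX8. Of the 7 tested, 2 rose and 2 fell (28.6% each, against 17.4% and 17.7% of all genes tested). The sums of 7 fibroblast markers were 613 and 629 at 6 h and 256 and 294 at 24 h. Of the 3 of these tested, 1 rose and 2 fell (33.3% and 66.7%, beside the same shares of all genes). Of 9 white blood cell markers, 7 had at most 5 counts in any library. The methods name only TPC1 cells for these libraries, and a part of other cell types in the members' changes was not tested.

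Of the 2 glucose transporters, which bring glucose across the plasma membrane, 1 fell (50%, against 17.7% of all genes tested). A group of 2 is too small for a statement about it as a whole. SLC2A3, which encodes the high-affinity transporter GLUT3, had 437 and 362 normalized counts at 6 h and 264 and 262 at 24 h. Both 24 h libraries lay below both 6 h libraries, a change of -0.60 on the log2 scale (standard error 0.111, adjusted P = 3.77e-05). Without replicate 1 of 6 h the log2 fold change was -0.46, under the cutoff. SLC2A1, which encodes the widely expressed transporter GLUT1, had 1522 and 1511 normalized counts at 6 h and 1519 and 1526 at 24 h. Its libraries overlapped, the log2 fold change was 0.01 (adjusted P = 0.945), and the 95% interval of the fold ran from 0.909 to 1.11. Per kilobase of the longest transcript, GLUT1 mRNA was the more abundant of the pair, with 17.1 RPKM, which are reads per kilobase and 1000000 counts, at 6 h against 3.62 for SLC2A3.

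In the upper steps of glycolysis, HK2 rose while ALDOC and TPI1 fell. HK2 (ENSG00000159399), on chromosome 2 of hg19 from 75061108 to 75120486, encodes the inducible hexokinase that binds mitochondria. It had 689.8 and 680.2 normalized counts at 6 h and 1369.9 and 1488 at 24 h, so that both 24 h libraries lay well above both 6 h libraries. This is a change of 1.06 on the log2 scale (standard error 0.0787, adjusted P = 4.67e-12), and the 95% interval of the fold was 1.86 to 2.33. The log2 fold change of HK2 lay between 1.01 and 1.13 under all 11 alternatives run. HK1, the constitutive hexokinase, had 3792 and 3702 normalized counts at 6 h and 3116 and 3424 at 24 h. It was lower in both 24 h libraries, but its log2 fold change of -0.20 (adjusted P = 0.0195) was within the cutoffs.

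Because levels of different genes are compared only per length, the share of each paralog was computed from counts per kilobase within each library. Only listed members enter a share, and no scaling between libraries does. HKDC1, a hexokinase gene outside the members, is therefore left out. It had 124 RPKM at 6 h and 119 at 24 h, against 35.8 and 31.3 for HK1. HK2 made up 11.4% and 11.5% of HK1 and HK2 together at 6 h and 23.8% and 23.6% at 24 h. HK1 therefore remained the larger part of this pair at both times. The 2 libraries of a time point were far closer to each other than the 12.2 percentage points between the means of the times, although an exact permutation test of 2 against 2 libraries cannot give a two-sided P below 0.333.

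The liver-type, muscle-type, and platelet-type phosphofructokinases, PFKL, PFKM, and PFKP, did not pass the cutoffs. PFKL and PFKM were higher at 24 h by log2 fold changes of 0.32 and 0.29 (adjusted P = 0.000274 and 0.00122), and that of PFKP was -0.07 (adjusted P = 0.378). Per kilobase, PFKP went from 34.7% and 34.0% of the 3 genes at 6 h to 28.8% and 28.5% at 24 h. PFKL was the largest of the 3 in every library, with 44.5% to 50.6%. GPI, which interconverts the 6-phosphates of glucose and fructose, had a log2 fold change of 0.04 (adjusted P = 0.682), and its fold lay within 0.925 to 1.14.

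Aldolase mRNA was almost entirely ALDOA. ALDOA, the aldolase of muscle and most proliferating cells, had 25621 and 24977 normalized counts at 6 h and 21888 and 22938 at 24 h, which gave a log2 fold change of -0.17 (adjusted P = 0.0555). ALDOC, the brain-type aldolase, had only 79.9 and 88.3 normalized counts at 6 h and 14.9 and 17.5 at 24 h, which in raw counts was 74 and 92 against 15 and 18. Both 24 h libraries were far below both 6 h libraries, and ALDOC had the lowest estimate of all members, a change of -2.37 on the log2 scale (standard error 0.257, adjusted P = 8.05e-09). It made up 0.296% and 0.335% of ALDOA and ALDOC together per kilobase at 6 h, and 0.0650% and 0.0727% at 24 h. The position of ALDOC overlaps another gene of the table, and the counting program and its strand setting are not given in the sources used here, so its count is uncertain. The positions of TPI1, GPI, PFKM, PFKFB2, PFKFB4, ENO2, CA9, EGLN3, and ANKRD37 overlap other genes of the table too, with the same uncertainty. It also holds for some genes outside the members that are named below, among them SLC2A12, PDHX, PC, PYGL, PYGB, and PGAM4. TPI1, triose phosphate isomerase, had 15609.8 and 15002 normalized counts at 6 h and 10870.5 and 10601 at 24 h. Its change of -0.51 on the log2 scale (standard error 0.0756, adjusted P = 1.46e-06) is at the edge of the cutoff and was -0.48 with upper quartile scaling, -0.48 without replicate 1 of 6 h, and -0.49 without replicate 2 of 24 h.

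**Figure D2:**
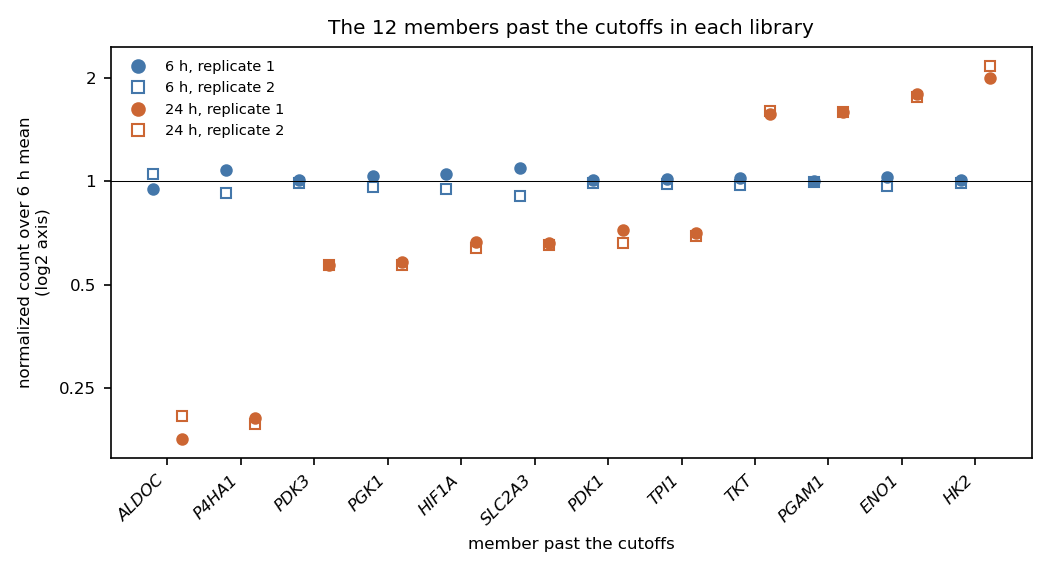
Normalized count of each of the 12 members past the cutoffs in each library, divided by the mean of its 6 h libraries, on a log2 axis. Blue symbols are 6 h and orange symbols 24 h, circles are replicate 1 and squares replicate 2, and in every gene the orange symbols lie on one side of the blue ones.

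The PFKFB enzymes make and break fructose 2,6-bisphosphate, the strongest activator of phosphofructokinase. None (0) of the 3 members passed the cutoffs in edgeR's test, whereas 35.1% of all genes tested did. At an adjusted P under 0.05 and no cutoff on size, 1 was higher and 0 were lower, against 33.0% and 32.6% of all genes tested. PFKFB3, the form with the highest kinase activity, had 1374 and 1360.4 normalized counts at 6 h and 1801 and 1845 at 24 h, a change of 0.42 on the log2 scale (standard error 0.0701, adjusted P = 1.04e-05). PFKFB2, which had the lowest change of the 3, had 629 and 549.7 normalized counts at 6 h and 682 and 636 at 24 h, and its libraries did not overlap. PFKFB2 and PFKFB4 had log2 fold changes of 0.16 and 0.20 (adjusted P = 0.116 and 0.0683). DESeq2 likewise put 0 of the 3 past the cutoffs.

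The lower steps of glycolysis divided at the step of phosphoglycerate. The enzymes before it, GAPDH and PGK1, were lower at 24 h, and the main forms of the enzymes after it, PGAM1, ENO1, and PKM, were higher. PGK1 (ENSG00000102144), on chromosome X of hg19 from 77320685 to 77384793, encodes phosphoglycerate kinase, which makes the first ATP of the pathway. It had 32796 and 30315 normalized counts at 6 h and 18378 and 18087 at 24 h, a change of -0.79 on the log2 scale (standard error 0.081, adjusted P = 2.68e-09). GAPDH, the preceding dehydrogenase and a common reference gene, had 139034 and 133576 normalized counts at 6 h and 106929 and 103506 at 24 h. Its libraries did not overlap, and its log2 fold change of -0.37 (adjusted P = 0.000842) was within the cutoffs. It took 0.538% and 0.519% of all counts at 6 h and 0.405% and 0.387% at 24 h.

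On the other side of that step, PGAM1, phosphoglycerate mutase, had 3751 and 3711 normalized counts at 6 h and 5939.9 and 5953 at 24 h. This is a change of 0.67 on the log2 scale (standard error 0.0702, adjusted P = 3.89e-09), with a 95% interval of the fold of 1.44 to 1.76. PGAM4, an intronless copy of PGAM1 that shares most of its sequence, rose by a similar size (log2 fold change 0.57, adjusted P = 2.76e-05) at 7.13 RPKM against 79.2 for PGAM1 at 6 h, and reads of the pair may have been exchanged. Without replicate 1 of 6 h the log2 fold change of PGAM4 was 0.47. ENO1 (ENSG00000074800), on chromosome 1 of hg19 from 8921061 to 8939308, encodes the enolase of most tissues. It had 76905 and 72088 normalized counts at 6 h and 133491 and 131321 at 24 h, a change of 0.83 on the log2 scale (standard error 0.091, adjusted P = 9.53e-09). PKM, pyruvate kinase of muscle and tumors, was higher by a log2 fold change of 0.39 (adjusted P = 0.00072), within the cutoffs. ENO2, the neuronal enolase, went the other way, with 1685 and 1598 normalized counts at 6 h and 1222 and 1361 at 24 h and a log2 fold change of -0.34 (adjusted P = 0.000219). ENO2 made up 1.36% and 1.38% of ENO1 and ENO2 together per kilobase at 6 h and 0.574% and 0.649% at 24 h.

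The divergence does not depend on how libraries were scaled, since it is seen within each library. The ratio of ENO1 to PGK1 counts was 2.35 and 2.38 at 6 h, and 7.26 in both libraries at 24 h, a 3.08-fold difference. The ratio of PGAM1 to GAPDH counts went from 0.0270 and 0.0278 to 0.0556 and 0.0575. These ratios were chosen after the values were seen. In RPKM, the most abundant enzyme mRNA at 6 h was GAPDH (3866), followed by ENO1 (1598) and PKM (1550), which differed from each other by less than the spread between their libraries. At 24 h GAPDH (2984) and ENO1 (2841) lay closer together, with GAPDH still above ENO1 in both libraries. Some glycolytic genes have processed pseudogenes, so reads shared with such copies may have been lost or gained in the authors' counting. The 15 glycolytic enzymes together took 1.66% and 1.57% of all counts at 6 h and 1.75% and 1.72% at 24 h.

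**Figure D3:**
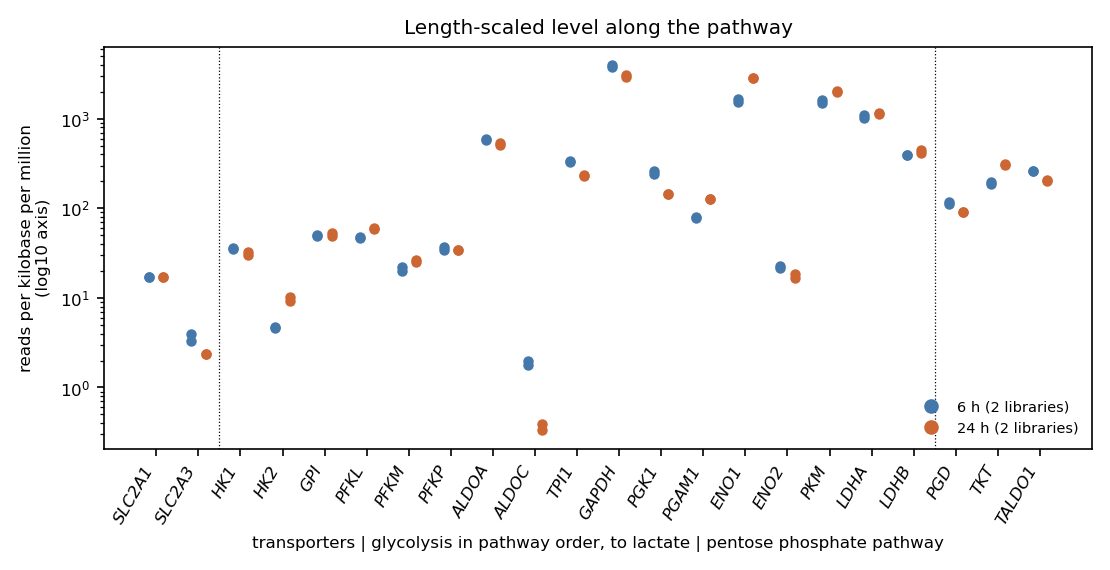
Reads per kilobase of the longest transcript and 1000000 counts (RPKM) in each library, on a log10 axis, for the transporters, the glycolytic enzymes and lactate dehydrogenases in pathway order, and the pentose phosphate enzymes. Blue points are the 2 libraries at 6 h and orange points those at 24 h, and orange lies below blue at GAPDH and PGK1 but above it at PGAM1, ENO1, and PKM.

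At the end of the pathway, pyruvate is reduced to lactate by lactate dehydrogenase or enters mitochondria, where pyruvate dehydrogenase kinases (PDKs) hold back its oxidation. LDHB had 15980.1 and 15991 normalized counts at 6 h and 17999 and 16674 at 24 h, which gave a log2 fold change of 0.12 (adjusted P = 0.191), and LDHA one of 0.11 (adjusted P = 0.266). The 95% intervals of the fold were 0.954 to 1.22 for LDHA and 0.971 to 1.21 for LDHB. LDHA made up 72.1% to 73.5% of the pair per kilobase in every library, with no separation of the times. Both kinases of the list fell, as did 17.7% of all genes tested, and 2 genes are too few for a statement about the family. PDK3 had 389.7 and 382 normalized counts at 6 h and 220.2 and 221 at 24 h, a change of -0.81 on the log2 scale (standard error 0.108, adjusted P = 3.08e-07). PDK1, a hypoxia-inducible kinase, had 1457 and 1421 normalized counts at 6 h and 1038 and 953 at 24 h, a change of -0.53 on the log2 scale (standard error 0.075, adjusted P = 7.02e-07). Without replicate 2 of 24 h, the lower of its time point, the log2 fold change of PDK1 was -0.46, under the cutoff. PDK2 and PDK4, the other kinases of the family, did not pass the cutoffs (log2 fold change 0.03 and 0.06), and PDK4 had 17 to 27 counts.

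**Figure D4:**
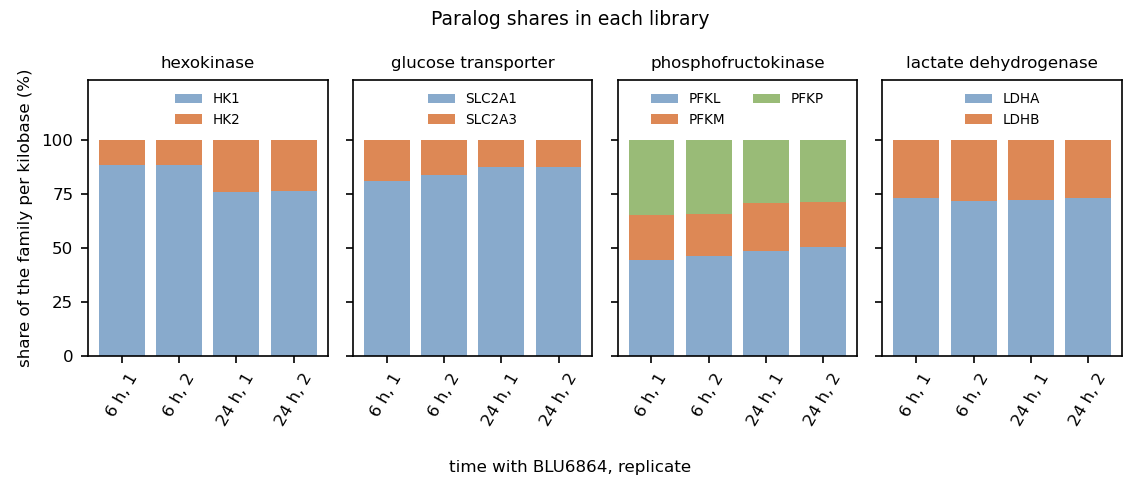
Share of each member among the listed members of its family in each library, from counts per kilobase of the longest transcript. The stacked bars add to 100% for the listed hexokinases, glucose transporters, phosphofructokinases, and lactate dehydrogenases. Genes outside the members are left out, such as HKDC1 (124 RPKM at 6 h) and SLC2A6 (40.1 RPKM at 6 h, against 17.1 for SLC2A1). The HK2 share is near 11.5% in both 6 h libraries and near 23.7% in both 24 h libraries, while the LDHA share is between 72.1% and 73.5% in all 4.

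In the pentose phosphate pathway, TKT rose and the other 2 members were lower within the cutoffs. TKT, transketolase, had 15480.2 and 14704 normalized counts at 6 h and 23698 and 24201 at 24 h, a change of 0.67 on the log2 scale (standard error 0.0785, adjusted P = 3.43e-08). TALDO1, transaldolase, which works on the same sugar phosphates, had 8491 and 8470.4 normalized counts at 6 h and 6632 and 6538 at 24 h, a change of -0.37 on the log2 scale (standard error 0.0719, adjusted P = 7.81e-05). PGD, an NADPH-producing dehydrogenase, had a log2 fold change of -0.34 (adjusted P = 0.000186). None of these genes had overlapping libraries, which also held for 81.8% of all genes tested. The ratio of TKT to TALDO1 counts within a library went from 1.82 and 1.74 to 3.57 and 3.70. Of further pentose phosphate genes, PGLS, a lactonase of the oxidative arm, RPIA, an isomerase of pentose phosphates, and RBKS, ribokinase, rose with log2 fold changes of 0.61, 0.55, and 0.84. PRPS1, which carries ribose 5-phosphate into nucleotide synthesis, fell (log2 fold change -0.56, adjusted P = 7.24e-07). RPIA was at 0.42 without replicate 2 of 6 h and PRPS1 at -0.48 without replicate 2 of 24 h, both under the cutoff.

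Of the 7 hypoxia-response targets tested, 1 fell (14.3%, against 17.7% of all genes tested) and none (0, against 17.4%) rose by the cutoffs in edgeR's test. At an adjusted P under 0.05 and no cutoff on size, 1 was higher and 4 were lower, against 33.0% and 32.6% of all genes tested. By DESeq2, 0 of the 7 rose and 1 fell. The median of the 7 was -0.38, beside 0.0029 for all genes tested. P4HA1 (ENSG00000122884), on chromosome 10 of hg19 from 74766975 to 74856732, encodes a subunit of the prolyl hydroxylase that matures collagen. It had 18289 and 15680.2 normalized counts at 6 h and 3493 and 3354 at 24 h, so that the libraries of the 2 time points were far apart, 4.96-fold lower at 24 h. This is a change of -2.31 on the log2 scale (standard error 0.0845, adjusted P = 1.05e-18), between -2.42 and -2.20 under all 11 alternatives. P4HA2, which encodes the alternative subunit, had a log2 fold change of -0.05 (adjusted P = 0.562). VEGFA, the angiogenic growth factor, was the member of this group with the largest positive change, with 4857 and 5140.4 normalized counts at 6 h and 6458 and 6509 at 24 h. The resulting log2 fold change was 0.38 (adjusted P = 5.16e-05).

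ADM, BNIP3, and NDRG1 were lower at 24 h by similar amounts. The log2 fold changes were -0.43 for ADM, which encodes the vasodilator peptide adrenomedullin, -0.38 for BNIP3, a mitophagy receptor, and -0.41 for NDRG1, a stress-responsive gene. Their adjusted P values were 0.000188, 4.40e-05, and 1.89e-05. In each the 24 h libraries lay below the 6 h libraries, which also held for 40.8% of all genes tested. ADM passed the cutoff without replicate 1 of 24 h (log2 fold change -0.54). EGLN3 and ANKRD37 were barely detected, with 15 to 26 and 28 to 64 counts, and their folds of 24 h over 6 h had 95% intervals of 0.577 to 1.55 and 0.688 to 1.5, so smaller differences were not detectable at this depth. The 8 targets together took 0.141% and 0.133% of all counts at 6 h and 0.0764% and 0.0743% at 24 h. Without P4HA1 these shares were 0.0700% and 0.0717% at 6 h and 0.0632% and 0.0617% at 24 h.

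HIF1A, which encodes the oxygen-regulated subunit itself, fell. HIF1A (ENSG00000100644), on chromosome 14 of hg19 from 62162231 to 62214976, had 30472 and 27678 normalized counts at 6 h and 19437 and 18604 at 24 h, a change of -0.61 on the log2 scale (standard error 0.0818, adjusted P = 2.94e-07). HIF-1α is controlled mainly through protein stability, which was not measured. EPAS1, which encodes the related factor HIF-2α, moved the other way, with 2295 and 2416 normalized counts at 6 h and 4948 and 4990.3 at 24 h, a change of 1.08 on the log2 scale (standard error 0.0714, adjusted P = 4.57e-13). The ratio of EPAS1 to HIF1A counts within a library was 0.0753 and 0.0873 at 6 h and 0.255 and 0.268 at 24 h. HIF1A was the more abundant of the pair at both times, with 184 RPKM at 24 h against 36.9 for EPAS1.

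Of the 12 further genes of the HIF system tested, 3 rose (25%, against 17.4% of all genes tested) and none (0, against 17.7%) fell by edgeR. At an adjusted P under 0.05 and no cutoff on size, 5 were higher and 2 lower, against 33.0% and 32.6% of all genes tested. By DESeq2, 2 of the 12 rose and 0 fell, and their median by edgeR was 0.10. Besides EPAS1, the genes that rose were CITED2, which competes with HIF for its coactivators (log2 fold change 0.93, adjusted P = 1.25e-11), and ARNT2, an alternative partner subunit, which had 0 and 4 counts at 6 h and 10 and 12 at 24 h and was not called by DESeq2 or without replicate 1 of either time. ARNT, the partner subunit, and HIF1AN, an asparagine hydroxylase that inhibits HIF, had log2 fold changes of 0.06 and -0.07 (adjusted P = 0.473 and 0.399). VHL, which recognizes hydroxylated HIF, had -0.28 (adjusted P = 0.00161). The prolyl hydroxylase genes EGLN1 and EGLN2 had log2 fold changes of 0.20 and -0.07 (adjusted P = 0.017 and 0.678).

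The wider list of hypoxia-response targets also went both ways. Of 30 tested, 7 rose (23.3%) and 5 fell (16.7%), with a median of -0.042, beside 17.4% and 17.7% of all genes tested. STC2, a secreted glycoprotein, had 76.6 and 75.8 normalized counts at 6 h and 454 and 434 at 24 h, a change of 2.54 on the log2 scale (standard error 0.13, adjusted P = 1.83e-15). LOX, lysyl oxidase, and IGFBP3, which binds insulin-like growth factors, rose with log2 fold changes of 1.07 and 1.07. DDIT4, an inhibitor of mTORC1 signaling, was the most abundant of those that fell, with 40509.9 and 37523 normalized counts at 6 h and 15993 and 15253 at 24 h, a change of -1.32 on the log2 scale (standard error 0.0829, adjusted P = 1.45e-13). INSIG2, which retains the sterol sensor SCAP in the endoplasmic reticulum, fell as well (log2 fold change -1.24, adjusted P = 4.67e-14).

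**Figure D5:**
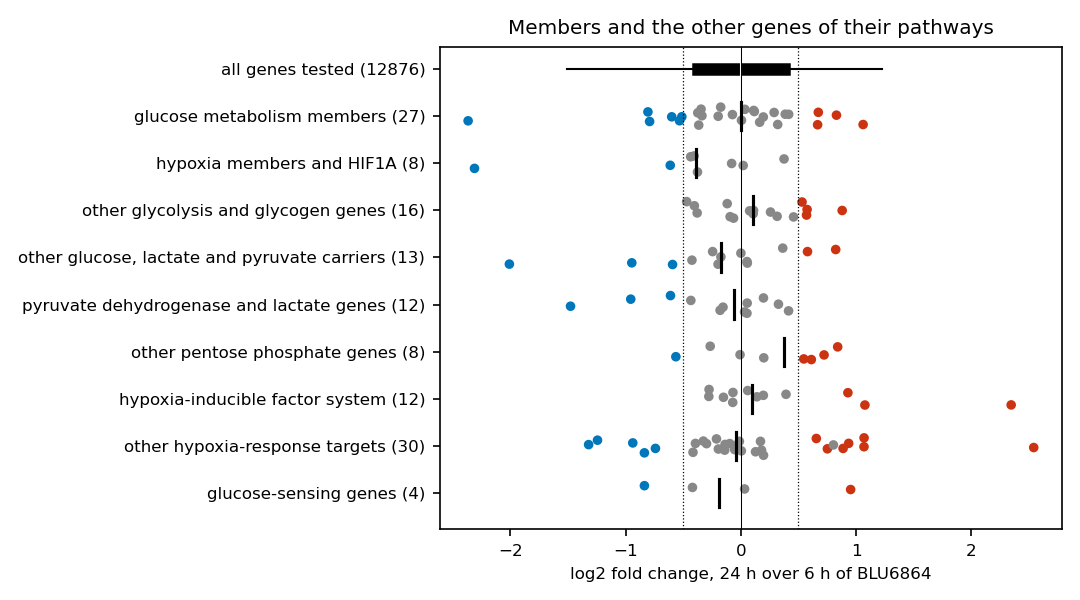
Log2 fold change, 24 h over 6 h, of each gene tested in the member groups and in 7 lists of other genes of the same pathways, with the number tested in parentheses and a black line at each median. Red points rose and blue points fell past the cutoffs, grey points did neither, vertical position within a list is random, and the top bar gives the 5th, 25th, 75th, and 95th percentiles of all genes tested (-1.50, -0.37, 0.37, and 1.23).

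Other genes of glucose metabolism showed the same mixture. Of 16 further glycolysis and glycogen genes tested, 4 rose (25%, against 17.4% of all genes tested) and none (0, against 17.7%) fell by edgeR. At an adjusted P under 0.05 and no cutoff on size, 7 were higher and 3 lower, against 33.0% and 32.6% of all genes tested. The 4 that rose were PGAM4, PGAM5, which despite its name is a mitochondrial phosphatase, and the glycogen phosphorylases PYGL and PYGB (log2 fold changes 0.88 and 0.57). DESeq2 called 0 of these 16 lower, and their median by edgeR was 0.11. PGAM5 did not pass with library size alone or without replicate 1 of either time. Of 13 further glucose, lactate, and pyruvate carriers, 2 rose (15.4%) and 3 fell (23.1%), near the 17.4% and 17.7% of all genes tested, with a median of -0.17. SLC2A12, which encodes the transporter GLUT12, had 1111 and 1205 normalized counts at 6 h and 287 and 289 at 24 h, a change of -2.01 on the log2 scale (standard error 0.0909, adjusted P = 1.29e-16). SLC2A4, which encodes the insulin-responsive transporter GLUT4, was past the cutoff only in some fits and not by DESeq2. SLC16A1, which encodes the lactate carrier MCT1, fell with a log2 fold change of -0.59 (adjusted P = 2.54e-07), or -0.47 without replicate 1 of 6 h.

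Among 12 genes of pyruvate dehydrogenase and related enzymes, 3 fell (25%, against 17.7% of all genes tested), and none (0, against 17.4%) rose by edgeR or by DESeq2, with a median of -0.061. At an adjusted P under 0.05 and no cutoff on size, 2 were higher and 5 lower, against 33.0% and 32.6% of all genes tested. LDHD, a mitochondrial D-lactate dehydrogenase, had 85.3 and 82.5 normalized counts at 6 h and 30.9 and 29.2 at 24 h, a change of -1.48 on the log2 scale (standard error 0.222, adjusted P = 1.91e-06). PDHX, which anchors a subunit of the pyruvate dehydrogenase complex, and PC, pyruvate carboxylase, had log2 fold changes of -0.95 and -0.61. Of 4 glucose-sensing genes tested, 1 rose and 1 fell (25% each, against 17.4% and 17.7% of all genes tested). TXNIP, a glucose-induced inhibitor of glucose uptake, fell (log2 fold change -0.84, adjusted P = 5.50e-09), and MLXIP, a glucose-sensing transcription factor, rose (log2 fold change 0.95, adjusted P = 3.43e-11). Genes of these further lists with changes under 1 were named after their values were seen.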

How the data were processed

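Gene counts from RNA-seq of TPC1 cells were analysed after 6 h and 24 h of BLU6864 (2 libraries each). Groups were taken from the treatment label. The submitters' processing notes name STAR 2.3, DESeq2, and the build hg19, whereas the methods name another STAR version. The counting program and its strand setting are not given in the sources used here. The deposited table holds raw read counts per gene, which were used here, with 0 other per-sample raw count columns left out. Beside them the authors deposited counts divided by a size factor (a normalized signal), and their own comparison as log2 fold changes, a Wald score, and P values (p-value and adjusted p-value). These columns were not used. Gene positions are those of the table, on hg19.

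The test was edgeR 4.0.16 under R 4.3.3 (filterByExpr, TMM scaling, quasi-likelihood F test, Benjamini-Hochberg adjustment over 12876 genes). Normalized counts are counts scaled to the mean TMM-adjusted library size. The standard error is the log2 fold change divided by the square root of F, and intervals are 95%. Levels per kilobase used the longest protein-coding GENCODE v44 transcript of each gene. The members and lists were chosen with earlier results of these data known. Every member is accounted for, and values in each library are given for members past the cutoffs and for the member with the highest and the lowest change of each role. Of the other lists, genes past the cutoffs with a change over 1 on the log2 scale are named, at most 4 per direction, with EPAS1, ARNT, VHL, EGLN1, EGLN2, and HIF1AN in any case. Some genes of the lists are not reported here. The test was checked on simulated data. Alternatives were DESeq2 1.42.0, other scalings and filters, an adjusted P under 0.05 with the cutoffs on size kept, a replicate block, and leaving out each library.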

Additional observations from a re-analysis of the deposited data

How the results depend on the processing

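The same 4 members passed the cutoffs upward under each of the 11 alternatives, all of which kept the cutoffs of 0.5 and -0.5 on size. Between 6 and 9 members passed downward, against 8 in the analysis as reported. Of the alternative values of single members, 371 kept their direction and their side of the cutoffs, 8 changed sign, 5 no longer passed, and 1 newly passed. Among the 371 are 35 from the adjusted P under 0.05, which reuses the fit as reported. Those 35 values could not differ and say nothing about stability. The median log2 fold change of the members, -0.080, ranged from -0.22 to -0.070 when libraries were left out one at a time. Only members with changes near 0 changed sign. With scaling by library size alone, GPI was -0.0075, SLC2A1 -0.037, and ANKRD37 -0.023. With 1 library left out, GPI ranged from -0.011 to 0.095, SLC2A1 from -0.0036 to 0.016, EGLN3 from -0.50 to 0.25, and ANKRD37 from -0.38 to 0.64. These causes were not tested. TPI1, PDK1, and SLC2A3 lost their call, and ADM gained one, in the fits named beside them. The median of all genes tested was 0.0029 with TMM, -0.040 with library size alone, and 0.033 with upper quartile scaling.

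The labels number the libraries 1 and 2 at each time, but nothing says that a number marks a shared culture or day, and the deviations of same-numbered libraries correlated at 0.069. With the replicate number as a block, 4 members rose and 8 fell, with a median of -0.074, and 2283 genes in all rose and 2313 fell, against 2238 and 2278 without it. Depth limits the comparison only for the members with few counts (ALDOC, EGLN3, ANKRD37, and CA9), and with 2 libraries per time the spread rests on all genes tested.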

Other observations

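KDR, which encodes the main receptor for VEGFA and is a marker of endothelial cells, had 485 and 517 counts at 6 h and 44 and 22 at 24 h (edgeR log2 fold change -3.97, 24 h over 6 h). VEGFA itself was higher at 24 h within the cutoffs. The summed normalized counts of the 4 endothelial markers in the table, of which KDR gave most, were 549 and 514 at 6 h and 54.8 and 28.2 at 24 h. KDR was chosen after its values were seen. The methods name only TPC1 cells for these libraries, and the origin of the counts was not tested.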
